A study of Mus musculus with 114 samples.

Results

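The genes that build, sense and move sterols were described in ribosome-bound RNA from the mouse prefrontal cortex. The set was given by gene symbol and held 29 genes, of 13101 gene rows in the count table. It comprised 7 enzymes of the mevalonate steps, 3 of the squalene and lanosterol steps, 8 of the post-lanosterol steps, 5 genes of the SREBP control loop and 6 genes of sterol transport and turnover. Each symbol matched 1 Ensembl identifier, and all 29 genes passed the filter on low counts in every fit. A gene that passed the test in a comparison is called below, which means an adjusted p (Benjamini-Hochberg, over all genes tested) under 0.05.

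Cells build cholesterol from acetyl units through mevalonate, squalene and lanosterol, and most of these enzymes are transcribed together when sterols run low. The transcription factor SREBP-2 (gene Srebf2) and its relative SREBP-1 (Srebf1) are held in the endoplasmic reticulum by Scap and the Insig proteins while sterols are plentiful, and are released when they fall. The brain makes its own cholesterol because lipoproteins do not cross the blood-brain barrier. Astrocytes export it on apolipoprotein E through the transporter Abca1, and neurons clear the surplus as 24-hydroxycholesterol through Cyp46a1.

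The RNA came from animals that the labels describe as Ribo-tag mice, in which ribosomes carry a haemagglutinin tag and are pulled down with an antibody against it. Brain tissue, given as prefrontal cortex in the study's design text, was sampled every 4 h at 6 zeitgeber times, from ZT2 to ZT22, where ZT0 is the time of lights on. The libraries used were 55 with a title that starts with PV (28 female, 27 male) and 58 with a title that starts with C (29 female, 29 male), with 8 to 10 for each title and time. The sources used here name no Cre driver, strain, age or number of animals per library, so p-values measure the spread between libraries. The title and the cell type entry in the labels name opposite cell types for every library, and libraries were therefore grouped by title and checked against marker genes.

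Total gene counts were 19.1 to 39.5 M reads in PV-titled libraries and 24.6 to 44.1 M reads in C-titled libraries. The median level of Pvalb, the calcium-binding protein that names PV interneurons, was 33.0 CPM (a gene's reads scaled to library size, with TMM factors) in PV-titled and 0.793 CPM in C-titled libraries. Slc17a7, the vesicular glutamate transporter of pyramidal cells, had medians of 718 CPM and 1809 CPM. Markers of other cells were also higher in PV-titled libraries: 12 of 12 astrocyte, 8 of 8 oligodendrocyte, 10 of 10 microglia and 7 of 7 endothelial and mural genes, with median log2 differences of 2.04, 2.34, 2.39 and 2.56. None of these genes was at 0 throughout the libraries of either title. The astrocyte genes summed to 1248 to 2761 CPM in PV-titled and 390 to 1377 CPM in C-titled libraries, and the microglia genes to 201.8 to 358.6 CPM and 47.3 to 110.3 CPM. The oligodendrocyte genes had median sums of 516.1 CPM and 224.4 CPM with overlapping ranges, and the endothelial and mural genes summed to 80.1 to 251.8 CPM and 11.1 to 77.5 CPM. In such bulk libraries, fewer cells of a type and less RNA per cell cannot be told apart.

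A few libraries stood apart from the others of their title by a low correlation with them. In the C-titled group these were 5: C_3D, C_3H and C_5K at ZT6, and C_3F and C_4D at ZT2. The digit and the letter are taken from the title, which does not say what they stand for. Libraries with the same digit are called a set below. Their median correlation with the other libraries was 0.876 to 0.940, against 0.958 to 0.982 for the other 53. In the PV-titled group they were 3, PV_1K at ZT10, PV_1G at ZT14 and PV_2L at ZT22, with 0.808 to 0.854 against 0.892 to 0.952. These 8 libraries held the highest value of their title for 14 and 13 of the 29 genes and the lowest for 16 and 11 (C-titled and PV-titled). Results are given with and without them.

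The first comparison asked how sterol gene levels differed between PV-titled and C-titled libraries. Most synthesis enzymes were lower in PV-titled libraries, and Abca1, Apoe and Srebf1 were higher, while Cyp46a1 was lower. Of the 29 genes, 27 were called, 8 higher and 19 lower in PV-titled libraries (edgeR quasi-likelihood test). Among all genes tested 44.3% were called higher and 43.2% lower, so a call as such was common, while 19 of 29 lower was above the share of all genes. The median log2 difference of the 29 genes was -0.57, against 0.01 for all genes tested. Without the 5 C-titled libraries that stood apart, 9 were higher and 19 lower, with 44.2% and 44.1% of all genes called in those directions.

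**Figure D1:**
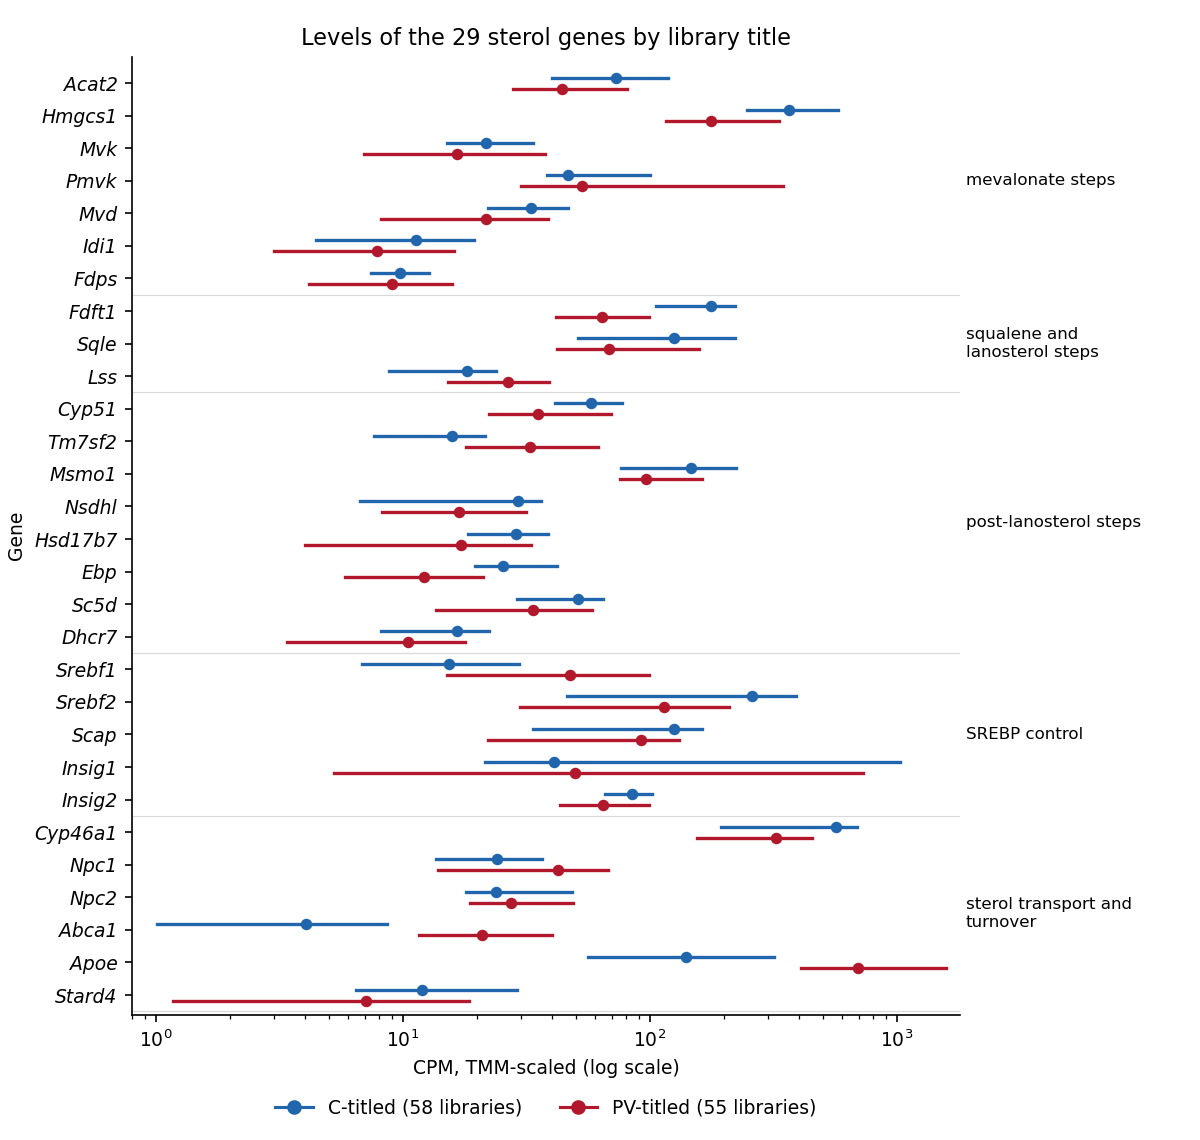
Level of each of the 29 genes in CPM on a log axis, grouped by role. Bars run from the lowest to the highest library and points mark the median, in blue for 58 C-titled and in red for 55 PV-titled libraries. The bars of Fdft1, Abca1 and Apoe are separate, while those of the other genes overlap.

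In the plot of levels, 3 genes had no overlap between the titles: Abca1 and Apoe on the higher side and Fdft1 on the lower side in PV-titled libraries. Of all genes tested, 2.41% had every PV-titled library above every C-titled one and 2.10% had every one below. The 3 genes remained separate without the 8 libraries that stood apart. Expressed per kilobase of exon, the highest median level in C-titled libraries was that of Cyp46a1 at 173.1 CPM per kb, followed by Hmgcs1 at 79.5 and Apoe at 65.4. In PV-titled libraries the order was Apoe at 325 CPM per kb, Cyp46a1 at 98.4 and Hmgcs1 at 38.6. The lowest level per kilobase was that of Abca1 in C-titled libraries, at 0.391 CPM per kb, and of Stard4 in PV-titled libraries, at 1.27 CPM per kb.

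Of the 7 mevalonate enzymes, 5 were lower and 1 was higher in PV-titled libraries. Hmgcs1, the cytosolic HMG-CoA synthase, ran from 247.3 over a median of 365.4 to 577.4 CPM in C-titled and from 116.3 over 177.4 to 333.1 CPM in PV-titled libraries. The groups overlapped slightly, and 51 of 55 PV-titled libraries were below the lowest C-titled one. Its log2 difference was -1.04 (SE 0.04, adjusted p = 3.06e-43). Acat2, which condenses acetyl-CoA at the entry of the pathway, differed by -0.71 (SE 0.05), and Mvd, the mevalonate diphosphate decarboxylase, by -0.57 (SE 0.06). The isomerase Idi1 differed by -0.53 (SE 0.07) and mevalonate kinase, Mvk, by -0.35 (SE 0.06). Pmvk, the kinase after Mvk, was the gene that was higher, by 0.30 (SE 0.09, adjusted p = 0.00186). Pmvk was not called in the second of the 2 ranges of library numbers, where its difference was -0.01 (adjusted p = 0.862), in males alone (0.24, adjusted p = 0.111) or without set 1 (0.08, adjusted p = 0.269). Fdps, the farnesyl diphosphate synthase, differed by -0.07 (SE 0.06) and was not called (adjusted p = 0.263). Scaled by library totals only, which moved the median of all genes to 0.21, it differed by 0.13 (adjusted p = 0.041).

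The promoter of Hmgcs1 is shown because it was the member whose promoter window held a full sterol regulatory element, the site to which SREBP proteins bind. The window spans 250 bases before to 50 after the start, chr13:119690101-119690400 on the plus strand of GRCm38.p6, from RefSeq. Insig1, an SREBP target whose level is taken up below, is given for comparison, chr5:28071162-28071461, also on the plus strand. Capitals mark the sterol element, TCACNCCAC. They also mark the NF-Y box, which reads CCAAT on 1 strand and ATTGG on the other. The E-box, which is CACGTG on both strands, is marked likewise.
Hmgcs1: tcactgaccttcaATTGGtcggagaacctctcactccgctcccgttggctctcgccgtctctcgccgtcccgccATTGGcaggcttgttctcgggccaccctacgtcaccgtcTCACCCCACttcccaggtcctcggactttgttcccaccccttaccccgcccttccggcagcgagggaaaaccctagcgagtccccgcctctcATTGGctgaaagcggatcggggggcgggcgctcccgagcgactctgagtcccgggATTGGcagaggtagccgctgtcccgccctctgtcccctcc
Insig1: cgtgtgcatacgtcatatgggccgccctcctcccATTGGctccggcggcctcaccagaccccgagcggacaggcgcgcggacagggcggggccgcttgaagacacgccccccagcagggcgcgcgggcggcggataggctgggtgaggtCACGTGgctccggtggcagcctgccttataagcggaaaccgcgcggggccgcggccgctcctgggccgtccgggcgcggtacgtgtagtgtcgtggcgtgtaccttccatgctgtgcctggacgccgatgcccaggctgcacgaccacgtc

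Of the 29 genes, 24 had promoter windows of 300 bases, some with several starts. Searched on both strands, TCACNCCAC was in 1 of the 24, against 1.44% of all genes with such windows. CCAAT was in 20 of 24 (83.3%), against 41.1% of all genes, and CACGTG in 6 of 24 (25%), against 8.09%. The Hmgcs1 window held 4 CCAAT boxes and the Insig1 window 1. These matches are a description of letters in a window and of no measured binding.

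All 3 enzymes of the squalene and lanosterol steps were called. Fdft1, the squalene synthase that commits farnesyl units to sterols, ran from 106.1 over 177.3 to 220.6 CPM in C-titled and from 41.5 over 63.8 to 99.0 CPM in PV-titled libraries. Every PV-titled library was below every C-titled one. The log2 difference was -1.40 (SE 0.04, adjusted p = 1.22e-55), a level 2.64-fold higher in C-titled libraries. Sqle, the squalene epoxidase, was lower in PV-titled libraries by -0.80 (SE 0.06). Lss, which closes the lanosterol ring system, went the other way, from a median of 18.1 CPM in C-titled to 26.7 CPM in PV-titled libraries (log2 0.59, SE 0.05, adjusted p = 2.28e-21). The gene span of Fdft1 overlaps that of Ctsb on the opposite strand. The labelled cDNA kit does not mark strand, so reads from any shared exon bases cannot be told apart. Overlaps here and below are of whole gene spans, and whether exons overlap was not examined.

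All 8 post-lanosterol enzymes were called, 7 lower and 1 higher in PV-titled libraries. Ebp, the isomerase of the sterol B ring, ran from 19.5 over 25.5 to 41.9 CPM in C-titled and from 5.84 over 12.2 to 21.0 CPM in PV-titled libraries. The overlap was small, with 54 of 55 PV-titled libraries below the lowest C-titled one (log2 -1.17, SE 0.06, adjusted p = 2.51e-35). The lanosterol demethylase Cyp51 differed by -0.71 (SE 0.05), Nsdhl, which acts in C4 demethylation, by -0.69 (SE 0.07), and Hsd17b7, a ketosteroid reductase of the same step, by -0.64 (SE 0.07). Dhcr7, the last reductase on the way to cholesterol, differed by -0.68 (SE 0.08). The C4-methyl oxidase Msmo1 differed by -0.59 (SE 0.05) and the desaturase Sc5d by -0.57 (SE 0.05). Tm7sf2, a sterol C14 reductase, ran from 7.67 over 15.8 to 21.5 CPM in C-titled and from 18 over 32.7 to 61.7 CPM in PV-titled libraries. Here 49 of 55 PV-titled libraries were above the highest C-titled one (log2 1.10, SE 0.06, adjusted p = 6.7e-35). Cyp51 overlaps Akap9 on the opposite strand, which limits the assignment of reads in the same way. Tm7sf2 overlaps Vps51 on the same strand, where reads from any shared exon bases could not be told apart by strand either.

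The 2 SREBP genes moved in opposite directions. Srebf1 ran from 6.82 over 15.4 to 29.4 CPM in C-titled and from 15.1 over 47.4 to 99.2 CPM in PV-titled libraries. Of the 55 PV-titled libraries 53 were above the highest C-titled one (log2 1.61, SE 0.07, adjusted p = 1.41e-42). Srebf2 ran from 46.2 over 260 to 390 CPM in C-titled and from 29.8 over 114 to 208.4 CPM in PV-titled libraries. All 55 PV-titled libraries were below the C-titled median, although the ranges overlapped (log2 -1.11, SE 0.09, adjusted p = 4.08e-22). Scap, the escort of the SREBP proteins, differed by -0.43 (SE 0.06) and Insig2 by -0.35 (SE 0.04), both called lower. Insig1 had medians of 40.9 and 49.5 CPM (C-titled and PV-titled) and was not called with all libraries (log2 0.30, SE 0.25, adjusted p = 0.26). Scaled by library totals only, which moved the median of all genes to 0.21, Insig1 differed by 0.52 and was called. Without the 5 C-titled libraries that stood apart its difference was 0.81 (SE 0.19, adjusted p = 5.34e-05), and without all 8 it was 0.57 (SE 0.14, adjusted p = 0.000164). Within the first and second ranges of library numbers it was 1.11 (adjusted p = 0.0258) and -0.20 (adjusted p = 0.315), and without set 1 it was -0.19 (adjusted p = 0.462). Srebf1 overlaps Rai1 and Scap overlaps 5830462I19Rik.

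Of the 6 transport and turnover genes, 4 were higher and 2 lower in PV-titled libraries. Abca1, the exporter that loads cholesterol onto lipoproteins, ran from 1.01 over 4.05 to 8.64 CPM in C-titled and from 11.6 over 20.9 to 40.3 CPM in PV-titled libraries (log2 2.39, SE 0.10, adjusted p = 4.15e-44). Apoe, the main apolipoprotein of the brain, had a lowest level of 56.0 and a median of 139.8 CPM in C-titled libraries and ran from 408.7 over 695.6 to 1587 CPM in PV-titled libraries (log2 2.27, SE 0.07, adjusted p = 2.81e-54). Both genes were separate between the titles in every library. Npc1 and Npc2, which move cholesterol out of lysosomes, differed by 0.78 (SE 0.06, adjusted p = 1.87e-23) and 0.18 (SE 0.06, adjusted p = 0.00388). Npc1 overlaps Rmc1, with the same limit on the assignment of reads. Npc2 was not called in the second range of library numbers (0.02, adjusted p = 0.815), in females alone (0.11, adjusted p = 0.208), or without set 1 or set 2 (0.10 and 0.13, adjusted p = 0.11 and 0.0665). Cyp46a1 ran from 193.9 over 569 to 691.7 CPM in C-titled and from 155.7 over 323.4 to 453.1 CPM in PV-titled libraries, and 54 of 58 C-titled libraries were above the highest PV-titled one (log2 -0.78, SE 0.05, adjusted p = 1.38e-31). Stard4, a soluble sterol carrier, differed by -0.75 (SE 0.10). Apoe and Abca1 are genes that glia express strongly, and the glial marker sums given above were higher in the same libraries. The part of other cell types in these differences was not tested.

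Set against a fold change of 2, the test left 6 genes: Abca1, Apoe, Srebf1 and Tm7sf2 above it and Fdft1 and Ebp below it. Of all genes tested 18% passed upward and 4.54% downward. Tm7sf2 was at the edge (adjusted p = 0.0494, and 0.205 without the 5 C-titled libraries). Srebf2 passed without those 5 libraries (adjusted p = 0.00592, against 0.141 with them). By the 2 ranges of library numbers, 28 and 25 of the 29 genes were called, and in each range 19 were lower in PV-titled libraries. The share of all genes called within each range is not reported here, so these counts cannot be set against it.

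**Figure D2:**
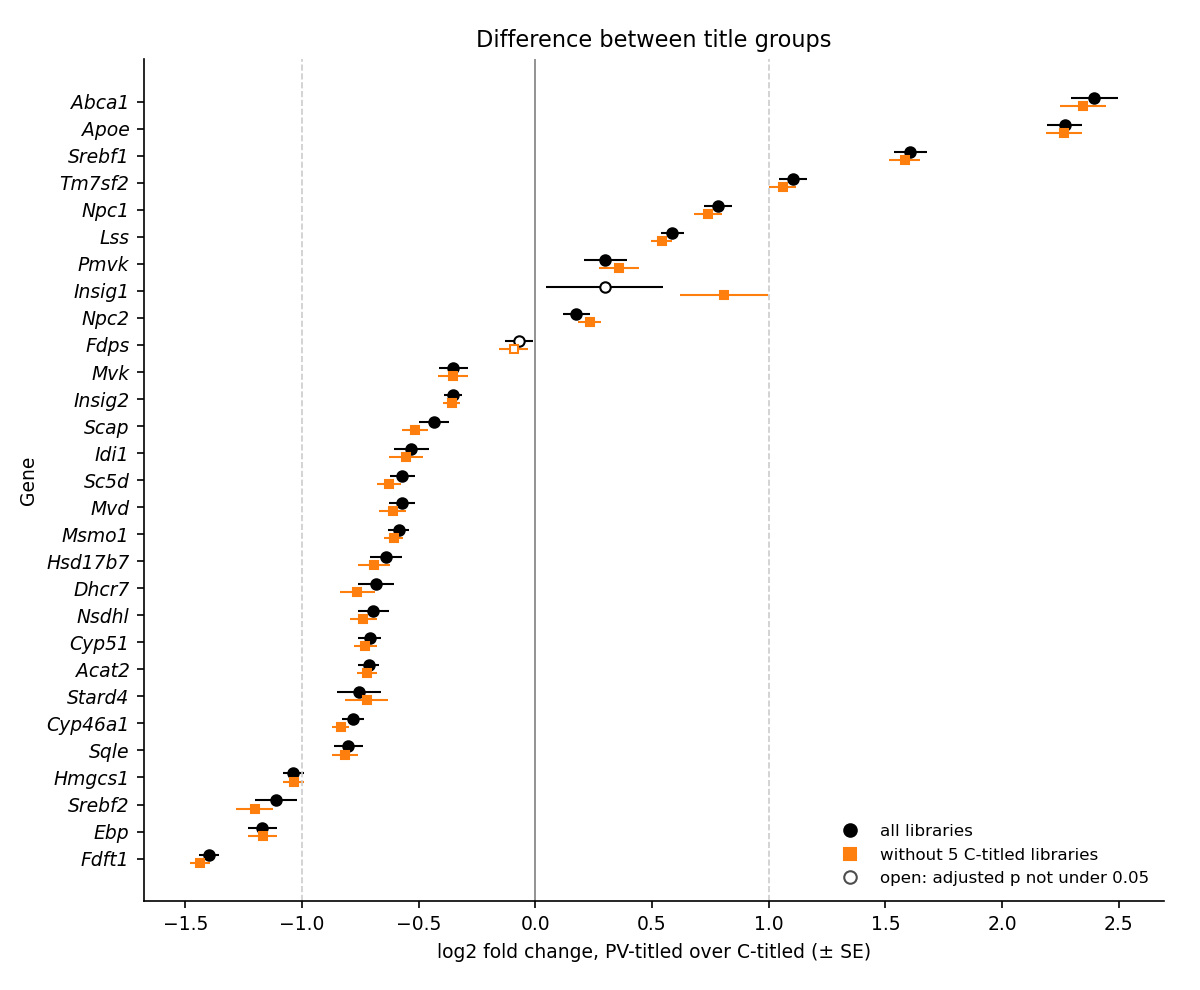
log2 fold change of each gene, PV-titled over C-titled, with the standard error of the fit. Black circles are the fit on all libraries, orange squares the fit without the 5 C-titled libraries that stood apart, and open symbols did not pass the test. Insig1 is the gene whose 2 values lie far apart, 0.30 and 0.81, and the dashed lines mark a 2-fold change.

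Genes of the same pathway outside the set did not share a direction. Of 35 other sterol genes, 25 were called, 13 higher and 12 lower in PV-titled libraries, with a median of 0.00. Among all genes tested 87.5% were called, 44.3% higher and 43.2% lower, so an even split was also that of all genes. The 3 with the smallest p were Nceh1, a cholesteryl ester hydrolase (log2 -1.11, SE 0.04), Lcat, the lecithin-cholesterol acyltransferase (2.78, SE 0.12), and Rnf145, a ubiquitin ligase of the sterol response (-0.80, SE 0.04). Against a 2-fold change 5 of the 35 passed, led by Lcat, Cyp27a1 (3.07, SE 0.14) and Lbr (1.71, SE 0.09). Of all genes tested 22.5% passed it. Of 14 SREBP-driven fatty acid genes, 13 were called, 9 higher and 4 lower, with a median of 0.55. Their smallest p values were those of Pnpla3 (2.01, SE 0.09), Lpin1 (1.40, SE 0.06) and Elovl5 (0.99, SE 0.05). Against a 2-fold change 4 of the 14 passed, led by Pnpla3, Lpin1 and Gpam (1.32, SE 0.10).

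Insig1 varied more between libraries of 1 title than any other member, with an SD of 199.3% of the mean in C-titled and 137.7% in PV-titled libraries, where the median over the 29 genes was 18.8% and 27.4%. Insig1 holds the SREBP proteins back and is itself an SREBP target. Its highest C-titled values were 1032 CPM in C_3F at ZT2, 411 CPM in C_3H and 358 CPM in C_3D at ZT6, which are 3 of the libraries that stood apart. The next were C_3G at ZT10 with 212.5 CPM and C_3J at ZT2 with 117 CPM, and the other C-titled libraries were at 66.3 CPM or below. All 5 of these libraries belong to set 3. Divided by its total count alone, C_3F had 671.8 CPM.

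Srebf2 was low in the libraries where Insig1 was high. C_3F had 46.2 CPM, C_3D 58.6 CPM and C_3H 115 CPM of Srebf2, against a median of 269.2 CPM in the 53 C-titled libraries that did not stand apart. Among PV-titled libraries the highest Insig1 values were 727 CPM in PV_1G at ZT14 and 529 CPM in PV_1K at ZT10. Srebf2 was 29.8 CPM and 40.5 CPM there, against a median of 121 CPM in the 52 others. PV_2L at ZT22 had the lowest Insig1 of its title, 5.27 CPM, and 73.6 CPM of Srebf2. Low Srebf2 without high Insig1 also occurred, as in C_1C at ZT22 with 78.5 CPM of Srebf2 and 55.7 CPM of Insig1.

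**Figure D3:**
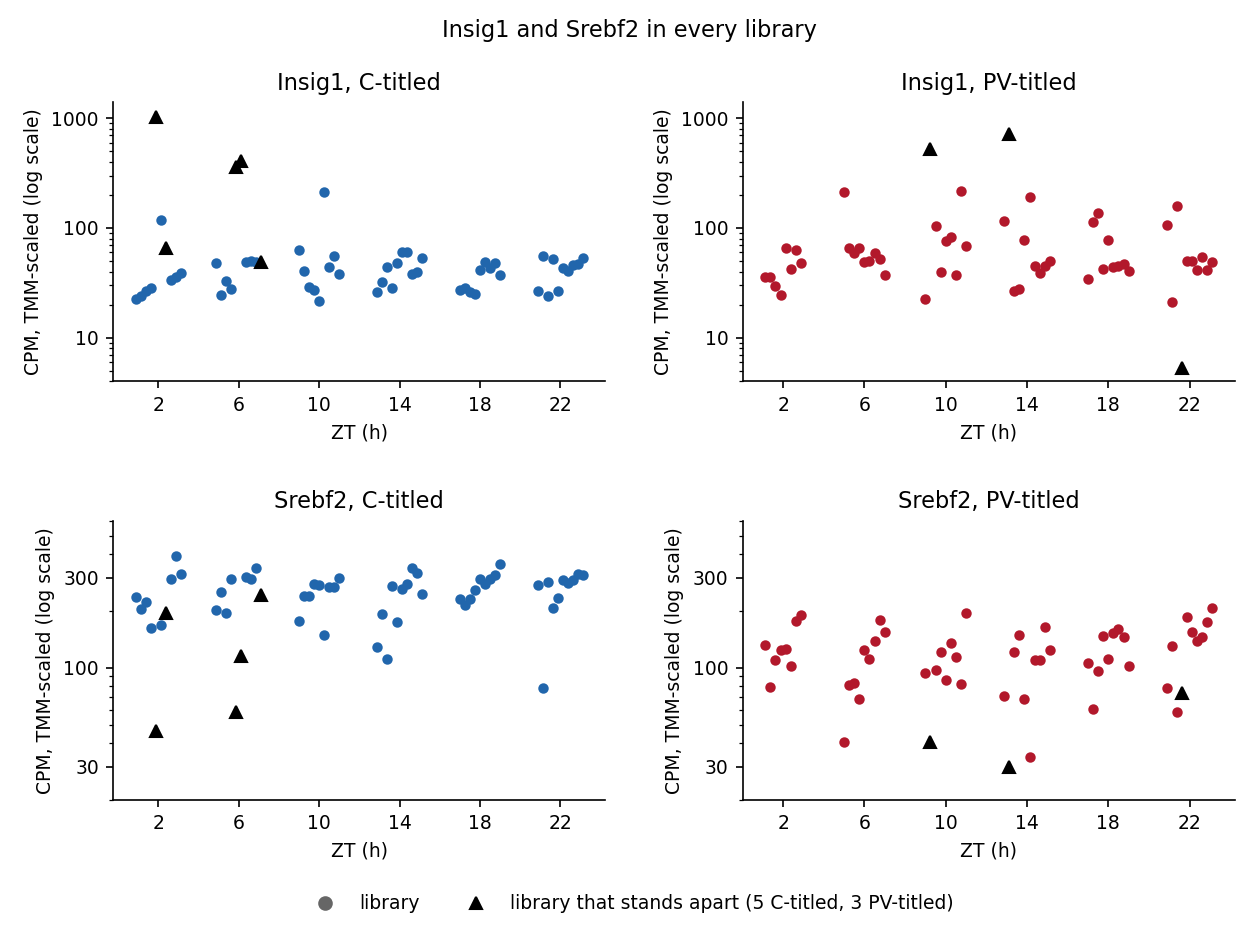
Insig1 and Srebf2 in every library in CPM on a log axis, by ZT in hours, for C-titled libraries in blue and PV-titled libraries in red. Black triangles are the libraries that stood apart, 5 C-titled and 3 PV-titled. The C-titled triangles at 1032, 411 and 358 CPM of Insig1 lie at ZT2 and ZT6, and the PV-titled ones at 529 and 727 CPM at ZT10 and ZT14.

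The second comparison asked whether sterol genes followed a 24 h rhythm within each title. In C-titled libraries, 11 of the 29 genes were called in a cosinor fit, which fits a cosine of 24 h with free amplitude and peak, against 27% of all genes tested. Their peaks were spread over the day, 5 from ZT0 to ZT12 and 6 from ZT12 to ZT24. Apart from Insig1, amplitudes were small, with log2 values from 0.10 to 0.21 (a peak 1.15-fold to 1.34-fold above the trough). Without the 5 libraries that stood apart 11 genes were also called, of which 9 were the same, against 22% of all genes. Insig1 and Stard4 were lost, and Msmo1 and Nsdhl were gained. Within the first and second ranges of library numbers, each with 29 libraries, 1 and 3 members were called. The share of all genes called in these smaller fits is not reported here, so the lower counts cannot be set against it.

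Hmgcs1 had the smallest p. In C-titled libraries its mean level was 400 ± 71.6 CPM (SD, n = 10) at ZT2, 421 ± 43.8 (n = 10) at ZT6 and 379 ± 46.7 (n = 9) at ZT10. It was 354 ± 38.7 (n = 10) at ZT14, 328 ± 35.3 (n = 9) at ZT18 and 364 ± 18.5 (n = 10) at ZT22. Levels were thus higher in the first part of the light phase than at ZT18, with overlap between all times. The amplitude was 0.15 (SE 0.03) with a peak at ZT5.13 (edgeR adjusted p = 0.000223), and 0.12 (SE 0.03) at ZT5.67 without the 5 libraries (edgeR adjusted p = 0.00126). Within the first and second ranges of library numbers the edgeR adjusted p was 0.0396 and 0.0635.

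Mvd peaked later. Its mean C-titled level was 29.8 ± 3.60 CPM (SD, n = 10) at ZT2, 31.6 ± 4.35 (n = 10) at ZT6 and 33.2 ± 3.23 (n = 9) at ZT10. It was 38.5 ± 3.68 (n = 10) at ZT14, 35.4 ± 4.53 (n = 9) at ZT18 and 30.8 ± 3.75 (n = 10) at ZT22. All 10 libraries at ZT14 were above the highest library at ZT2. The amplitude was 0.17 (SE 0.03) with a peak at ZT14.4 (edgeR adjusted p = 0.000589), and 0.15 at ZT13.9 without the 5 libraries (edgeR adjusted p = 0.00253). Within the first and second ranges of library numbers the edgeR adjusted p was 0.103 and 0.0302.

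Npc2 and Mvk were highest in the light phase. Npc2 means in C-titled libraries were 27.5 ± 10.4 CPM (SD, n = 10) at ZT2, 28.5 ± 7.89 (n = 10) at ZT6 and 26.9 ± 4.85 (n = 9) at ZT10. They were 25.3 ± 2.66 (n = 10) at ZT14, 21.0 ± 1.52 (n = 9) at ZT18 and 21.9 ± 2.33 (n = 10) at ZT22. Without the libraries that stood apart, the means at ZT2 and ZT6 were 23.1 and 23.8 CPM. The amplitude was 0.21 (SE 0.05) with a peak at ZT6.98 (edgeR adjusted p = 0.00791), and 0.15 (SE 0.04) at ZT9.60 without them (edgeR adjusted p = 0.00532). Mvk means were 20.6 ± 3.47 CPM (SD, n = 10) at ZT2, 24.1 ± 4.17 (n = 10) at ZT6 and 24.1 ± 5.24 (n = 9) at ZT10. They were 23.1 ± 3.27 (n = 10) at ZT14, 21.3 ± 2.64 (n = 9) at ZT18 and 19.5 ± 2.55 (n = 10) at ZT22, with overlap between all times. The amplitude was 0.16 (SE 0.04) with a peak at ZT10.0 (edgeR adjusted p = 0.0101), and 0.15 without the 5 libraries (edgeR adjusted p = 0.01).

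**Figure D4:**
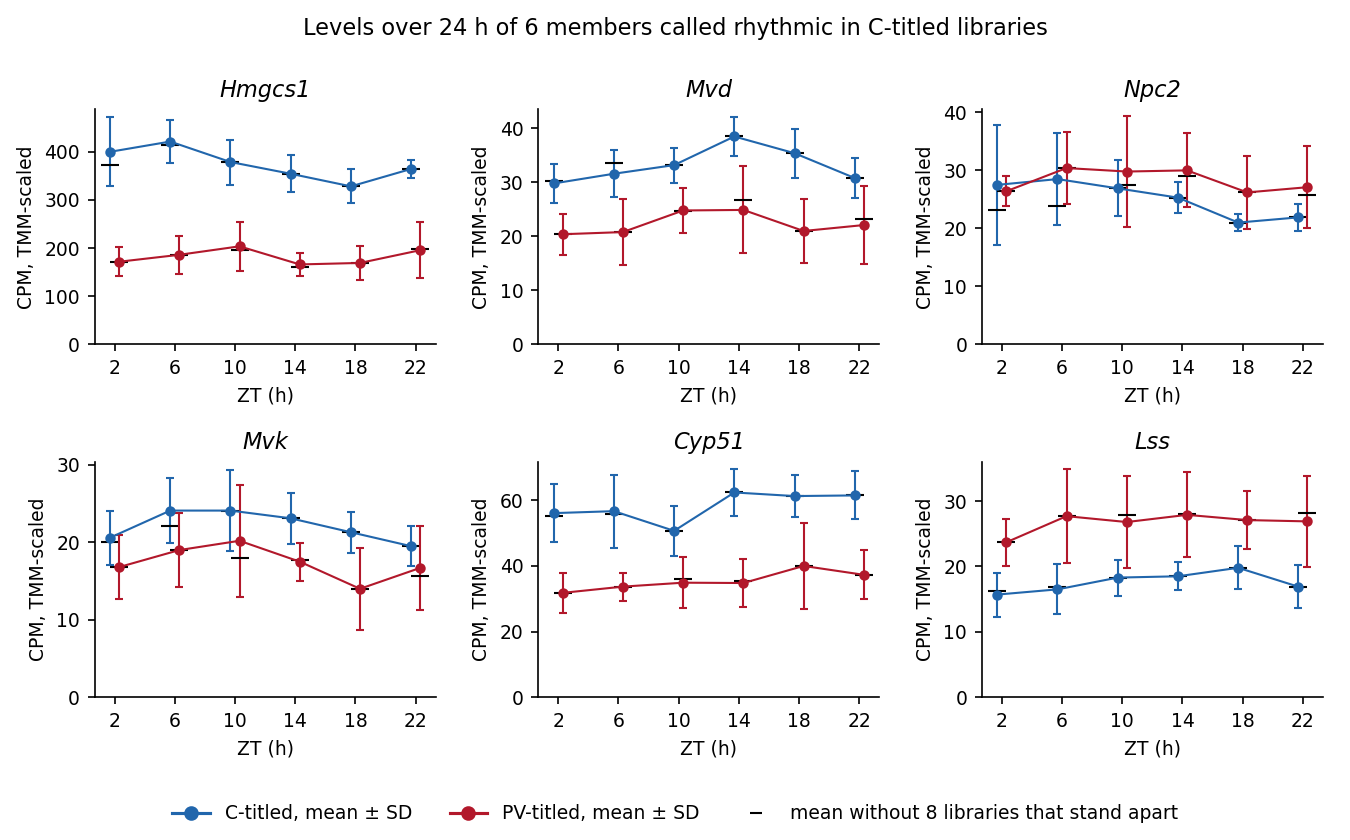
Mean level in CPM ± SD by ZT in hours for 6 genes called rhythmic in C-titled libraries (blue), with PV-titled libraries in red and 8 to 10 libraries per point. Black dashes are the means without the 8 libraries that stood apart. Hmgcs1 has its highest C-titled mean at ZT6, 421 CPM, and Mvd at ZT14, 38.5 CPM.

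The Insig1 rhythm in C-titled libraries rested on the libraries that stood apart. Its mean level was 142.4 ± 313.8 CPM (SD, n = 10) at ZT2, 109.9 ± 145.5 (n = 10) at ZT6, 59.0 ± 59.1 (n = 9) at ZT10 and 36.2 to 43.1 CPM at the later times. The medians, 34.5, 48.9, 40.2, 42.2, 37.5 and 44.8 CPM from ZT2 to ZT22, showed no such course. With all libraries the amplitude was 0.96 (SE 0.22) with a peak at ZT4.61 (edgeR adjusted p = 0.00304). Without the 5 libraries it was 0.22 (SE 0.10) and was not called (edgeR adjusted p = 0.241). Without set 3 it was 0.07 (edgeR adjusted p = 0.758), and within the first and second ranges of library numbers 1.05 and 0.68 (edgeR adjusted p = 0.18 and 0.075).

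The other C-titled calls were Lss of the squalene and lanosterol steps, the post-lanosterol enzymes Cyp51, Ebp and Hsd17b7, and Insig2 and Stard4. Lss had an amplitude of 0.16 (peak ZT14.8), Cyp51 of 0.12 (ZT19.0), Ebp of 0.14 (ZT21.0) and Hsd17b7 of 0.13 (ZT22.9). These 4 were called without the 5 libraries as well, as was Insig2 with 0.10 (ZT23.6). Stard4 had 0.21 at ZT4.14 (edgeR adjusted p = 0.0175) and 0.13 without the 5 libraries (edgeR adjusted p = 0.193). Of the 12 astrocyte marker genes 5 were called rhythmic in C-titled libraries, against 27% of all genes tested. Of these, 4 had a peak from ZT0 to ZT12, as had 2053 of the 3518 genes called in all. Without the 5 libraries 1 of 12 was called, against 22% of all genes. The part of astrocyte RNA in the rhythms of the sterol genes was not tested.

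**Figure D5:**
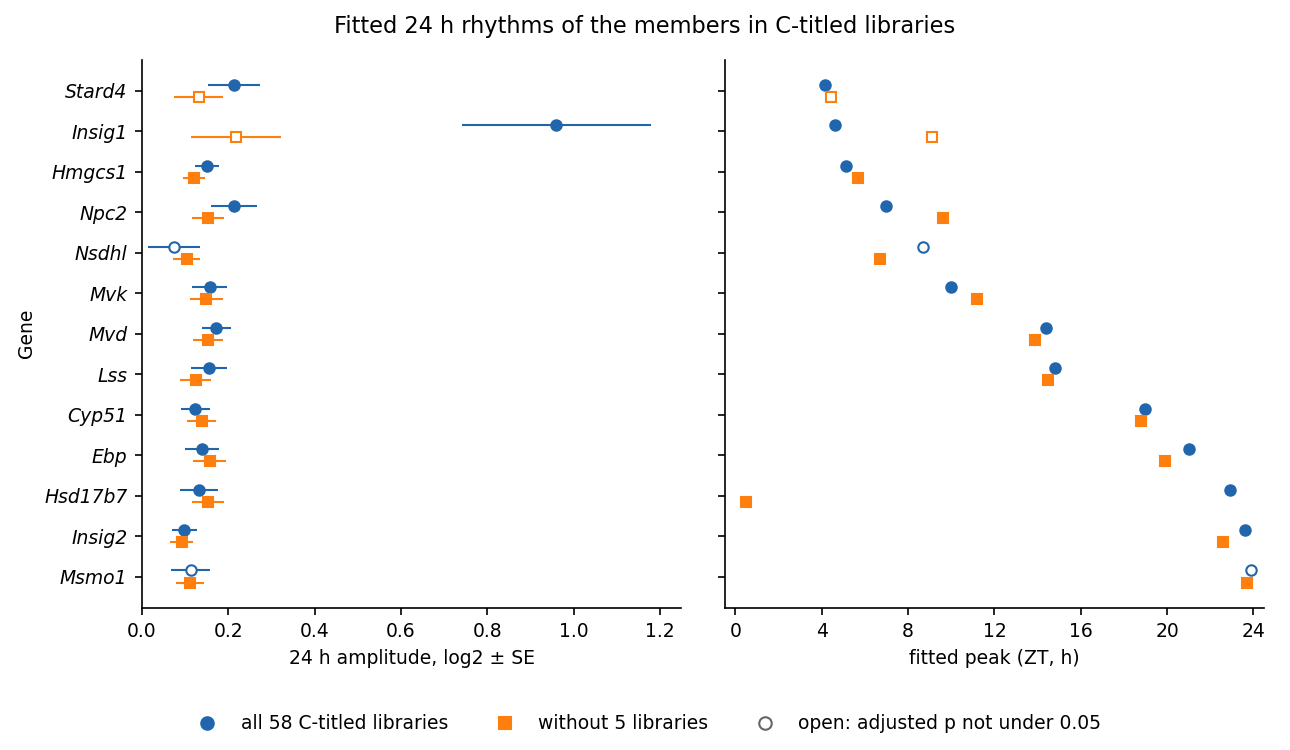
Fitted 24 h amplitude (log2, ± SE, left) and peak time (ZT in hours, right) in C-titled libraries for the 13 genes called with all 58 libraries (blue circles) or without the 5 that stood apart (orange squares). Open symbols did not pass the test. The amplitude of Insig1 is 0.96 with all libraries and 0.22 without the 5, while Hmgcs1 and Mvd keep their peaks near ZT5 and ZT14.

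In PV-titled libraries no member was called rhythmic by edgeR, against 3.1% of all genes tested. Of the 29 genes 2 had an unadjusted p under 0.05, and DESeq2 also called 0. Insig1 had an amplitude of 0.65 (SE 0.20) with a peak at ZT12.1 (edgeR adjusted p = 0.132), and Pmvk of 0.29 (SE 0.11) at ZT11.0 (edgeR adjusted p = 0.257). Without the 3 PV-titled libraries that stood apart 0 of 29 were called, against 4.06% of all genes, and the Insig1 amplitude was 0.25. Hmgcs1 had a PV-titled amplitude of 0.07 (SE 0.06) and Mvd of 0.13 (SE 0.08), so amplitudes of the size seen in C-titled libraries were within about 2 SE of these values and their absence was not shown.

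The rhythm itself was called different between the titles for 1 of the 29 genes, against 0.559% of all genes tested. This gene was Insig1, with an amplitude of the difference of 1.35 (edgeR adjusted p = 0.0405). Without the 8 libraries that stood apart 0 of 29 were called, against 0.138% of all genes, and the Insig1 difference was 0.15 (edgeR adjusted p = 0.997). Over 17 alternative fits its adjusted p ran from 0.0125 to 0.997. Within the first and second ranges of library numbers its amplitude of the difference was 2.04 and 0.50 (edgeR adjusted p = 0.323 and 0.664). In PV-titled libraries the mean level of Insig1 was 43.0 ± 14.9 CPM (SD, n = 8) at ZT2, 72.5 ± 53.3 (n = 9) at ZT6 and 130.8 ± 160 (n = 9) at ZT10. It was 134.5 ± 214.3 (n = 10) at ZT14, 64.4 ± 36.6 (n = 9) at ZT18 and 57.8 ± 44.1 (n = 10) at ZT22. The PV-titled means were highest at ZT10 and ZT14, the times of PV_1K and PV_1G, and without these libraries they were 81.0 and 68.7 CPM. For Hmgcs1 and Mvd the amplitude of the difference was 0.09 and 0.07 (edgeR adjusted p = 0.74 and 0.908).

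Of the 35 other sterol genes 6 (17.1%) were called rhythmic in C-titled libraries and 5 (14.3%) without the 5 libraries, below the 27% and 22% of all genes. Among those of smallest p were Osbp, an oxysterol-binding protein (amplitude 0.22, peak ZT6.64), and Lipa, the lysosomal acid lipase (0.29, ZT20.0). Both were called without the 5 libraries. Of 14 fatty acid genes 3 (21.4%) were called, Lpin1 (0.28, ZT16.0), Elovl6 (0.18, ZT19.0) and Elovl5 (0.14, ZT18.7), and 4 (28.6%) were called without the 5 libraries. In PV-titled libraries edgeR called 0 of 35 and 0 of 14, with 7 and 2 at an unadjusted p under 0.05, and DESeq2 called 1 and 0. Among the smallest p values there were those of Abcg4 and Abca7 (edgeR adjusted p = 0.0609 and 0.0824) and of Fads2, Elovl6 and Scd2 (edgeR adjusted p = 0.12, 0.241 and 0.366). For the difference of rhythms edgeR called 0 of 35 and 0 of 14, with 4 and 0 at an unadjusted p under 0.05, and DESeq2 called 1 and 0. Among the smallest p values were those of Abcg1 and Soat1 (edgeR adjusted p = 0.152 and 0.231) and of Elovl5, Lpin1 and Fasn (edgeR adjusted p = 0.494, 0.511 and 0.526).

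Sex and the range of library numbers were terms of every fit. No member was called by sex with edgeR in C-titled or PV-titled libraries, where 0.184% and 0.0307% of all genes were called. Of the 29 genes 2 and 1 had an unadjusted p under 0.05. DESeq2 called 0 in each, with no adjusted p for Insig1 in C-titled libraries. Cyp51 had the smallest p of the members in C-titled libraries and was lower in males, with a log2 difference of -0.13 (SE 0.05, edgeR adjusted p = 0.387). In PV-titled libraries it differed by 0.03 (SE 0.09). Tm7sf2 was higher in males by log2 0.17 (SE 0.07) and 0.21 (SE 0.10) without passing the test (edgeR adjusted p = 0.484 and 1). Of the 35 other sterol genes and the 14 fatty acid genes edgeR and DESeq2 called 0 by sex in each title, with 5 and 0 at an unadjusted p under 0.05 in C-titled and 1 and 0 in PV-titled libraries. The smallest p values were those of Mylip, Erlin1 and Rnf145 and of Elovl5, Scd2 and Fads2 in C-titled libraries, and of Cyp27a1, Erlin2 and Scarb1 and of Fads2, Lpin1 and Me1 in PV-titled libraries.

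The 2 ranges of library numbers differed for 10 of 29 genes in C-titled libraries, against 41.1% of all genes, and for 13 of 29 in PV-titled libraries, against 28.8%. Srebf2 was higher in the second range by 0.44 (SE 0.13) and 0.73 (SE 0.12), and Lss by 0.28 (SE 0.06) and 0.37 (SE 0.08). Apoe was lower there, with fitted differences of -0.39 (SE 0.11) and -0.37 (SE 0.09). Insig1 differed by -0.80 (SE 0.30) in PV-titled libraries, where 10 of the 11 libraries above 100 CPM were in the first range. Without the 3 PV-titled libraries that stood apart it differed by -0.47 (SE 0.21, edgeR adjusted p = 0.0918) and was not called. In C-titled libraries Insig1 differed by 0.26 (SE 0.33, edgeR adjusted p = 0.545), and without the 5 that stood apart by 0.75 (SE 0.15, edgeR adjusted p = 6.24e-05), the opposite direction to the PV-titled value. The labels do not say what the ranges stand for.

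Across libraries of 1 title, after time, sex and range were taken out, the members varied together little. The median pairwise Pearson correlation of the 29 members was 0.02 in C-titled and 0.03 in PV-titled libraries. Without the libraries that stood apart, that of the 29 members was 0.07 and 0.03. The median pairwise Pearson correlation of the 18 synthesis enzymes was 0.13 over 58 C-titled libraries (Spearman 0.12) and 0.02 over 55 PV-titled libraries (Spearman 0.02). Without the libraries that stood apart it was 0.17 and 0.01, and for a seeded sample of 1000 genes it was 0.00. Within the SREBP control loop it was -0.41 in C-titled libraries and -0.19 without the 5, and in PV-titled libraries it was 0.00 and -0.05 without the 3. These correlations are descriptions over libraries that share depth and handling.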

How the data were processed

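Ribosome-bound RNA was isolated with an anti-HA antibody and made into cDNA with the SMART-seq HT kit and Nextera Flex libraries, per the labels' protocols. The authors deposited 1 table of raw gene counts with Ensembl identifiers. The submitters' processing notes name FastQC, HTSeq, DESeq2 and the build GRCm38, with no versions. The no-feature row held 55.5 to 67.7% of the column total in PV-titled and 51.9 to 59.4% in C-titled libraries and stayed out of library sizes and tests. Of 114 libraries 113 were used, since the name of 1 column matched no title. No 2 libraries of a group differed by as little as sampling noise (lowest chi-square per gene 14).

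Counts were filtered (filterByExpr), TMM-scaled and fitted over all genes with edgeR 4.0.16 in R 4.3.3 (quasi-likelihood F tests, glmTreat for 2-fold, Benjamini-Hochberg at 0.05). The fits held ZT, sex and the range of library numbers. Rhythm was a cosine and sine of 24 h, and its difference between titles an interaction. DESeq2 1.42.0, other scalings, no filter, ranges, sexes, sets and the libraries that stood apart were alternatives. The fits were tested on simulated data. All members are named. Per-time values are given for the 5 rhythmic members of smallest p and for Insig1, and from the 2 other lists the counts and the 3 genes of smallest p in each test, except that some of these genes are not reported here. Members and lists were chosen with earlier results of these data known.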

Additional observations from a re-analysis of the deposited data

Results flagged for a closer look

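Single libraries were compared with the others of the same title and time for the 5 genes whose values by time are given in full, in 60 groups of 8 to 10 libraries. In 8 of them the highest library lay far from the rest by Dixon's ratio, and 5 of the 8 were libraries that stood apart. Chance alone gives this in about 1 of 20 independent groups. The 5 genes were chosen by their rhythm in these same libraries, and some libraries recur across genes. The 8 of 60 can therefore not be set against that rate. Insig1 was 1032 CPM in C_3F at ZT2 (others 22.5 to 117.1), 212.5 CPM in C_3G at ZT10 (21.4 to 62.4) and 212.6 CPM in PV_1I at ZT6. It was 528.9 CPM in PV_1K at ZT10 (22.5 to 217.6) and 727 CPM in PV_1G at ZT14 (26.4 to 191.6). Hmgcs1 was 577.4 CPM in C_3F at ZT2 and 333.1 CPM in PV_1B at ZT22. Mvk was 37.6 CPM in PV_1K at ZT10 (12.2 to 22.3). The 24 h course of Insig1 differed between the titles by the interaction test (edgeR adjusted p = 0.0405), and over 17 alternatives this p ran from 0.0125 to 0.997.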

How the results depend on the processing

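The number of sterol genes called between the titles was 27 of 29 and ranged from 25 to 29 over all alternatives, with at least 19 lower in PV-titled libraries in each. In the main fit 87.5% of all genes were called, and for most alternatives that share is not reported here. Directions reversed, with a call in 1 of the 2 fits, for Fdps with library totals only (0.1339, edgeR adjusted p = 0.041) and for Pmvk in the second range of library numbers (-0.0146, edgeR adjusted p = 0.862). Insig1, not called with all libraries, also changed sign, to -0.20 in the second range and -0.19 without set 1. The count rhythmic in C-titled libraries, 11, was 1 in the first range, 3 in the second, 4 with time as a factor, 0 in females alone and 0 in males alone. Leaving out 1 set at a time it was 5 to 10, lowest without set 2. The shares of all genes called in these fits are not reported here, and the fits by range, sex or set held fewer libraries. The fitted cosine of Insig1 in C-titled libraries turned to the opposite phase without set 3, and over the sets left out its amplitude ran from 0.0691 to 1.1070. The count whose rhythm differed between titles, 1, was 0 with library totals only, without the 5 or the 8 libraries that stood apart, in either range, in either sex, with time as a factor and without any 1 set. Set numbers were not taken as a pairing, since not every pair of same-numbered libraries correlated above 0.1. The median correlation was 0.234 and 0.092 for the same number and -0.058 and -0.026 for other numbers, so C-titled libraries of a set did vary together. The main fits held no term for the set, and their p-values took these libraries as independent. With the set as a replicate block, 28 genes were called between the titles, 11 as rhythmic in C-titled libraries and 0 in the rhythm difference. The shares of all genes called with this block are not reported here, so these counts cannot be set against them. In this block fit Insig1 was called between the titles, with a difference of 0.52 (edgeR adjusted p = 0.0254). Its C-titled amplitude there was 0.35 (edgeR adjusted p = 0.211). DESeq2 gave no adjusted p for Insig1 in the C-titled rhythm or in the C-titled sex difference. Depth limits Abca1 most, at 1.01 CPM in its lowest C-titled library.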
